A study of Mus musculus with 40 samples.

Results

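The genes described here are the collagens, the laminin chains and 12 further matrix and meningeal genes (fibronectin, the nidogens, perlecan, the fibrillins, small leucine-rich proteoglycans, Sparc, Postn and Apod) in the forebrain of mouse embryos with a duplication of Chd8. They were chosen by symbol, from the naming pattern of collagens and laminins plus the 12 named genes. Of 67 such symbols in the RefSeq gene table, 66 were in at least one of the deposited tables, among 17974 genes in all. Each table held 64 of them, of 15449 genes at E18.5 and 17940 at E14.5. The collagen gene Col10a1 was in neither table, Col17a1 and Col6a6 were in the E14.5 table alone, and Col8a2 and Lum in the E18.5 table alone.

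The study sequenced polyadenylated RNA from the forebrain of male embryos. The groups were Chd8 KI and wild-type (WT) at E18.5 and Chd8 KI and WT at E14.5, with 5 libraries each. KI is the name in the labels, and the series title calls the change a duplication of Chd8. The construct, its promoter, the strain and the litters are not given in the sources used here, so the p-values measure the spread between these libraries. The tables used here hold the authors' comparison of the genotypes at each stage and no value per library. For each gene its level (the mean normalized count over the 10 libraries of a stage), the log2 fold change and its standard error (SE) therefore take the place of values per sample.

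Collagens are triple-helical proteins. Fibrillar types such as I and III form the cables of connective tissue, type IV forms the sheet of basement membranes, and laminins, nidogens and perlecan complete that sheet. In the developing forebrain the fibrillar types, decorin and lumican are best known from the fibroblasts of the meninges, while the pial basement membrane anchors the endfeet of radial glia. Some collagens belong instead to neural cells, such as Col25a1 of neurons and Col2a1, which is transcribed in early neuroepithelium as well as in cartilage.

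The tissue and the direction of the comparison were checked first. All 12 radial glia markers looked at were tested at both stages, with a summed level of 46810 at E18.5 and 48526 at E14.5. Of 22 meningeal fibroblast markers, 20 were listed at E18.5 and 21 at E14.5, with summed levels of 7820 and 5739. Markers of cartilage and bone (summed level 148 at E18.5 and 140.0 at E14.5) and of skin and skeletal muscle (77.5 and 41.3) were low, and the keratin genes Krt5 and Krt14 were in neither table. In the authors' deposited table Chd8 stood at 0.51 (SE 0.0378) at E18.5 and 0.64 (SE 0.0313) at E14.5, and positive values are read as higher in KI from this gene, since the headers do not name the direction. In such bulk samples fewer cells of a type and less RNA per cell cannot be told apart.

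The promoters of 4 members are shown because the results turn on these genes. Lama5 and Col18a1 passed the test at E14.5, and Col1a2 and Col3a1 were among the members whose values were least certain at E18.5. Each line gives the 250 bases before a listed transcription start, 5′ to 3′ on the gene's own strand, from RefSeq (GRCm38.p6), which lists promoters for 47 of the 67 symbols. Capitals mark the GC box GGGCGG on either strand, a binding motif of Sp-family factors.
Lama5, chr2:180225860-180226109, minus strand: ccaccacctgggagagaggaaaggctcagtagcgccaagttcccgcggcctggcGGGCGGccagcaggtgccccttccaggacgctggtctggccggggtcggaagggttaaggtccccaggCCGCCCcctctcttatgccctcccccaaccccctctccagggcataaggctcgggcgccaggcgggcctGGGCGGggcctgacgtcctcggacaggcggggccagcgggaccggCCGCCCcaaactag
Col18a1, chr10:77166531-77166780, minus strand: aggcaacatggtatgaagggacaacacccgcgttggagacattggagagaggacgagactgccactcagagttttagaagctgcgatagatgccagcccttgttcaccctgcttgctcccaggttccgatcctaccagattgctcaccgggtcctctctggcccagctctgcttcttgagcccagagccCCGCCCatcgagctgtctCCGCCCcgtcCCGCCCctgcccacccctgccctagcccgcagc
Col1a2, chr6:4505368-4505617, plus strand: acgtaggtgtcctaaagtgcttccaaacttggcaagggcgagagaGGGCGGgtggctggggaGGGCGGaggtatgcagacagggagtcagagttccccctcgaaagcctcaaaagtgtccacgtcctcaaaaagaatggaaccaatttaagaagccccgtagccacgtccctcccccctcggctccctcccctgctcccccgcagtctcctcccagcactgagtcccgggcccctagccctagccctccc
Col3a1, chr1:45311288-45311537, plus strand: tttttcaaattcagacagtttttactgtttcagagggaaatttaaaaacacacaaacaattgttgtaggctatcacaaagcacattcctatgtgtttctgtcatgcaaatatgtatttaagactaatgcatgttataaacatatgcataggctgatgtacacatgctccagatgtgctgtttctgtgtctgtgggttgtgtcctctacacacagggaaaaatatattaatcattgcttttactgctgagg

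The Lama5 window held 4 GC boxes and 19 CpG dinucleotides at 72.4% G+C. The start used for Lama5 lies inside its listed gene span, which ends at 180225904. Part of that window, with the GC box nearest the start, therefore falls within the gene. The Col18a1 window held 3 GC boxes and 12 CpGs at 62.0% G+C; RefSeq lists 2 starts for this gene, and the one farther upstream is shown. In Col1a2 there were 2 GC boxes, 11 CpGs and 62.0% G+C, whereas the Col3a1 window had no GC box, 0 CpGs and 35.2% G+C. A GC box was present in 32.7% of the 32851 RefSeq windows of this length, and the median window held 6 CpGs at 52.4% G+C. Searched on both strands, the CCAAT box (33.8% of all windows) was found in Col18a1 and Col1a2, and TATAAA (12.4% of all windows) in Col3a1. These matches are descriptions of the letters alone.

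At E18.5, shortly before birth, many of the members, fibrillar and basement membrane genes among them, varied more between libraries than other genes of their level, and none of those tested passed the test of KI against WT. Of the 64 members listed, 51 were tested, meaning that the table gives an adjusted p. Of these, 0 passed an adjusted p of 0.05 in the authors' DESeq2 test, against 0.0662% of all 13601 genes tested (0.0441% higher and 0.0221% lower in KI). With so small a share over all genes, a count of 0 does not set the members apart. At an unadjusted p under 0.05 the count was also 0, against 5.96% of all genes tested. Above 0 stood 27 of the 51 tested members, against 48.8% of all genes tested, and the median log2 fold change was 0.00 over these members and −0.00 over all genes tested. A further 3 members had a p-value but no adjusted p, and 10 had no p-value.

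Those 10 were Col1a1, Col1a2, Col3a1, Col6a2, Col6a3, Col8a2, Dcn, Lum, Postn and Apod. They made up 15.6% of the members listed, while 0.55% of all genes in that table had no p-value, and they were 10 of the 85 such genes (11.8%). As background, DESeq2 by default withholds the p-value of an expressed gene in which a single library has an extreme count; the columns used here do not say which library that would be. At E14.5 the members without a p-value numbered 0, against 0.0167% of all genes in that table.

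Type I collagen is a trimer of the products of Col1a1 and Col1a2 and a main fibril of connective tissue. In the authors' deposited table Col1a1 (NCBI gene ID 12842, chromosome 11 at 94936224 to 94953042 in GRCm38.p6) had a log2 fold change of −0.20 with an SE of 1.44 at E18.5, at a level of 252. The 95% interval of its KI level relative to WT ran from 0.123 to 6.11 times. Col1a2 (ID 12843, chromosome 6 at 4505618 to 4541543) stood at 0.14 (SE 1.15) in the authors' deposited table, at a level of 407, and its interval ran from 0.231 to 5.23 times. Col3a1 (ID 12825, chromosome 1 at 45311538 to 45349706), which encodes the type III chain that accompanies type I in soft connective tissue, was at −0.13 (SE 1.23) in the authors' deposited table, at a level of 489.5, with an interval from 0.172 to 4.83 times. For these 3 genes a severalfold rise and a severalfold fall both lay inside the interval, so a difference between genotypes was not detectable at E18.5.

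The proteoglycans that bind such fibrils also had wide errors. For E18.5 the authors' deposited table gives −0.14 (SE 1.17) for decorin (Dcn), 0.03 (SE 1.23) for lumican (Lum) and −0.03 (SE 0.518) for biglycan (Bgn), of which Bgn kept its p-value. Periostin (Postn), a matricellular protein of fibroblasts, was at −0.17 (SE 1.01) and the lipocalin gene Apod at −0.05 (SE 0.769) in the authors' deposited table. Of the type VI collagen chains, which form beaded microfibrils around cells, the authors' deposited table gives 0.12 (SE 0.483) for Col6a1, 0.10 (SE 0.718) for Col6a2 and 0.02 (SE 0.768) for Col6a3. The short-chain collagen gene Col8a2 had 0.05 (SE 1.16) there. An SE of at least 0.5 at a level of at least 100 was found for 33 of 11868 such genes at E18.5 (0.278%), and 9 of these 33 were members. At E14.5 it was found for 0 members, against 0.0262% of genes of that level.

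**Figure D1:**
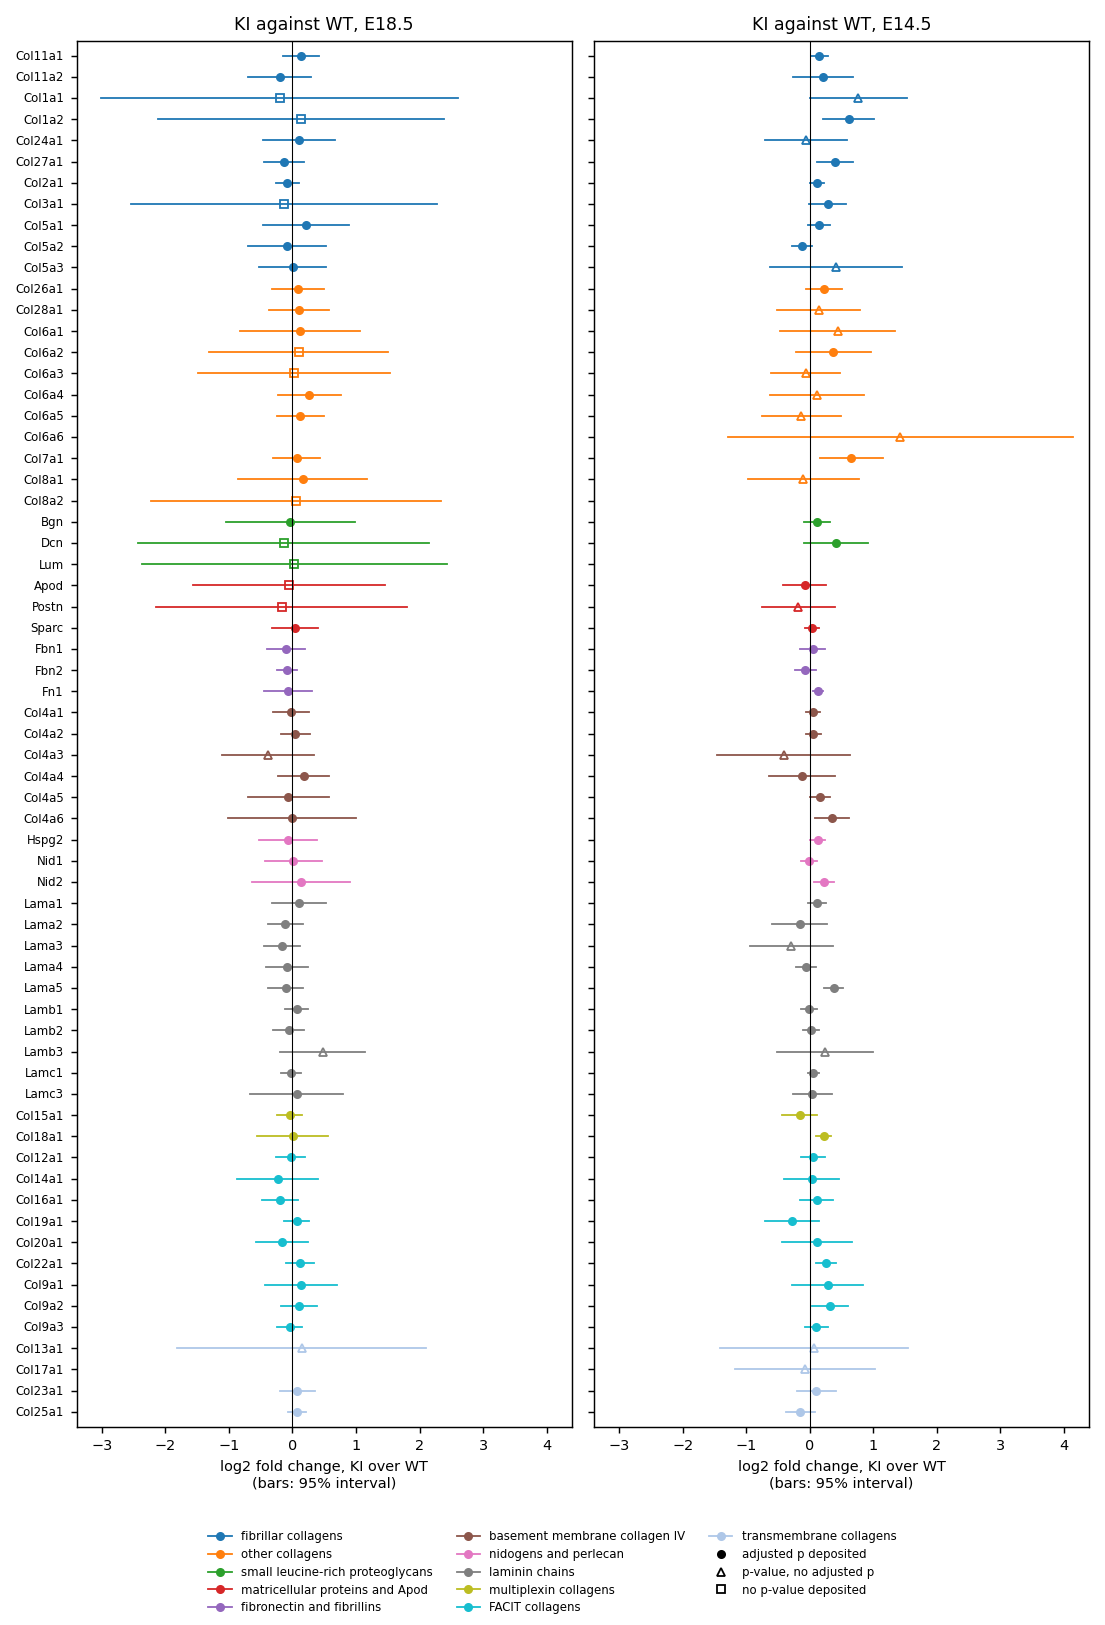
Log2 fold change of KI over WT for 65 of the 66 genes at E18.5 (left) and E14.5 (right), as deposited by the authors; bars are 95% intervals, colours give the protein class, and the marker shows whether a gene has an adjusted p, a p-value alone, or neither. The widest bars at E18.5 belong to Col1a1, Col3a1, Lum, Dcn, Col8a2 and Col1a2 (SE 1.15 to 1.44). At E14.5 the intervals of Lama5 and Col18a1, which passed, lie above 0, as do those of other members that did not pass, such as Col1a2 and Fn1.

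To set this spread beside the effect of low counts, each SE was divided by the median SE of the genes nearest in level in the same table, 100 on either side and the gene itself. At a relative SE of 1 the deposited SE of a gene equalled the median SE of those genes. The members had a median relative SE of 2.31 at E18.5 and 1.03 at E14.5; over the tested members alone it was 1.61 at E18.5. It was at least 2 for 33 of 64 members at E18.5, against 2.34% of all genes, and for 1 of 64 at E14.5 (Col11a2, 2.04), against 0.903% of all genes. Among the 15449 genes at E18.5, Col3a1 ranked 3 with a relative SE of 15.98, Col1a2 ranked 5 with 13.7 and Col1a1 ranked 6 with 13.7. At E14.5 the relative SE was 1.05 for Col3a1, 1.02 for Col1a2 and 1.09 for Col1a1.

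The spread differed among the classes of matrix proteins at E18.5. The median relative SE was 6.17 for Sparc, Postn and Apod, 4.48 for the small leucine-rich proteoglycans and 4.09 for the nidogens with perlecan. Type IV collagens had a median of 2.87, the fibrillar collagens 2.59 and fibronectin with the fibrillins 2.34. The laminin chains had a median of 1.61, the transmembrane collagens one of 1.51 and the fibril-associated (FACIT) collagens one of 1.263. At E14.5 the medians of all classes lay between 0.995 and 1.30.

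Within a class the members differed too. Among the fibrillar collagens Col2a1, the chain of cartilage collagen, had a relative SE of 0.943 at E18.5, and Col27a1 and Col24a1, 2 minor fibrillar types, had 1.10 and 1.21. Fibronectin (Fn1), a glycoprotein that cells use to assemble matrix, had 4.51, the nidogens Nid2 and Nid1 had 5.20 and 4.09, and perlecan (Hspg2) had 3.85. The genes Col4a1 and Col4a2, which encode the common basement membrane trimer, had 3.52 and 2.61. The neuronal Col25a1 (1.05), the FACIT collagen Col22a1 (0.956) and the epithelial laminin chain Lama3 (0.973) were near 1. The 3 lowest members were Col4a4 (0.919), Col2a1 and the FACIT collagen Col20a1 (0.945).

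**Figure D2:**
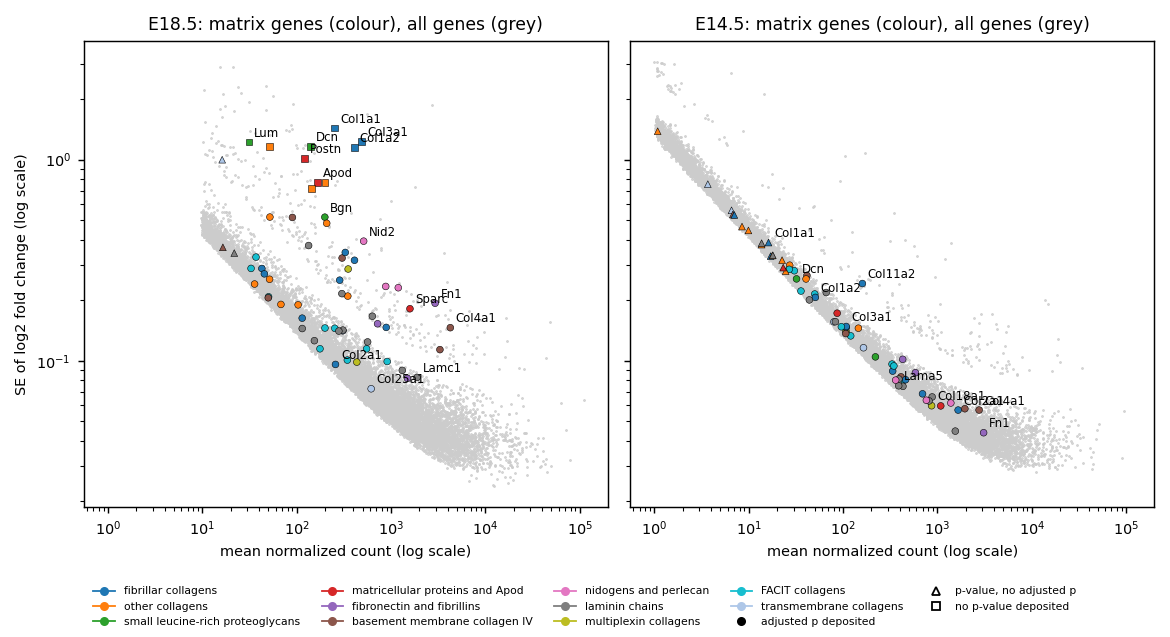
SE of the log2 fold change against the mean normalized count, both on log scales, at E18.5 (left) and E14.5 (right); grey points are all genes, coloured points are collagens, laminins and matrix genes by class, and squares have no p-value. At E18.5 Col3a1 (relative SE 15.98) and Nid2 (5.20) lie above the band of other genes and Col2a1 (0.943) within it; at E14.5 Col3a1 (1.05) and Nid2 (0.982) lie within it.

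The next values assume that the 10 libraries of a stage had equal size factors and both genotypes the same mean. Counting noise expected at the gene's level was subtracted. The SEs would stand for a remaining coefficient of variation between libraries of 157% for Col1a1, 126% for Col1a2 and 134% for Col3a1 at E18.5. At E14.5 the same calculation gives 34.4% for Col1a1, 17.8% for Col1a2 and 13.1% for Col3a1. For Fn1 it gives 21.1% at E18.5 and 4.47% at E14.5. For Lamc1, the γ chain of most laminins, it gives 8.77% at E18.5 and 4.19% at E14.5.

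Markers of some cell types had a large spread at the same stage. The 20 meningeal fibroblast markers listed at E18.5 had a median relative SE of 3.99 (range 0.911 to 23.3), and 10 of them had no p-value. The 11 choroid plexus genes had a median of 2.66, and 4 had no p-value. In the authors' deposited table the prostaglandin synthase gene Ptgds had an SE of 1.69, the growth factor gene Igf2 one of 0.730 and Aldh1a2, a meningeal enzyme of retinoic acid synthesis, one of 2.33 at E18.5. Ttr, the transthyretin gene of choroid plexus, had an SE of 1.88 in that table, and these 4 genes were singled out after their values were seen. The summed level of the choroid plexus genes was 3540 at E18.5 and 357 at E14.5.

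The microglia and macrophage genes had a median relative SE of 1.61 at E18.5, between 0.907 for the microglia marker P2ry12 and 7.70 for Mrc1, a marker of macrophages at the brain's borders. It was at least 2 for 5 of them, among these the complement gene C1qa (2.27), which microglia and macrophages share; these 3 genes were picked after their values were seen. Of the 11 genes of that list, 4 had no p-value: Mrc1, Pf4, Lyve1 and Cd163. Other cell types of the forebrain wall were nearer to their neighbours in level. The median relative SE at E18.5 was 1.15 for 14 endothelial genes, 1.27 for 12 pericyte and smooth muscle genes, 1.12 for 9 Cajal-Retzius genes and 1.06 for 12 radial glia genes, with 0 genes lacking a p-value in each list. The highest value was 2.93 in the endothelial list and 4.94 in the pericyte and smooth muscle list. The 4 erythroid genes listed had a median of 2.32 at E18.5. At E14.5 the meningeal list had a median of 1.01 and the choroid plexus list one of 1.03. The part of meningeal and choroid plexus RNA in the spread of the matrix genes was not tested.

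**Figure D3:**
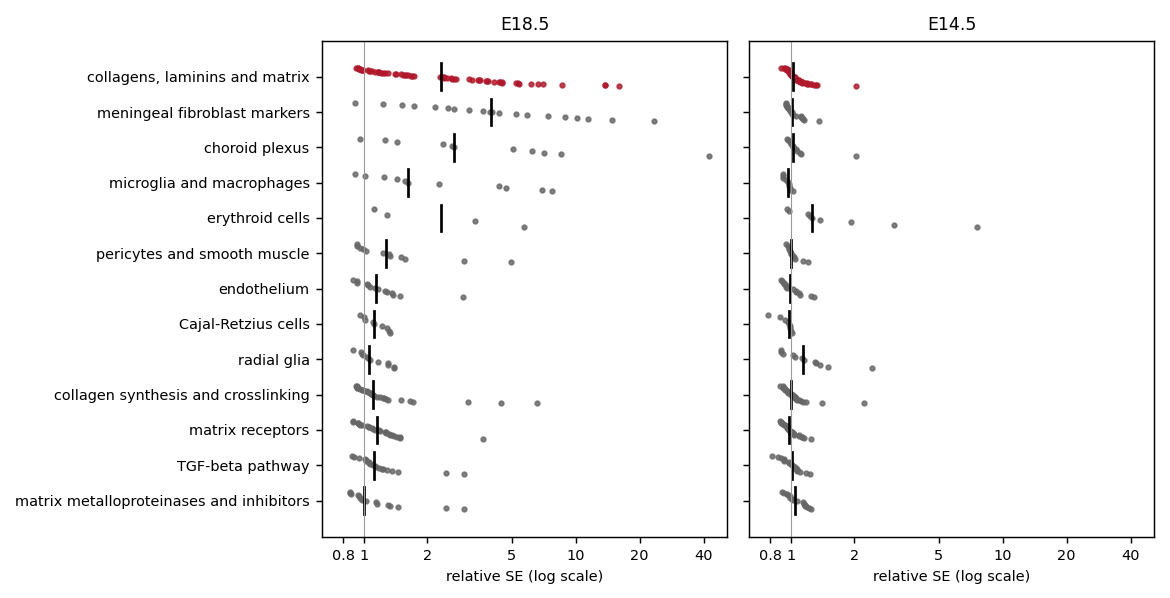
Relative SE (log scale) of each gene of the matrix genes and of the marker and pathway lists at E18.5 (left) and E14.5 (right); points are genes and bars mark medians. At E18.5 the matrix genes (median 2.31), meningeal markers (3.99) and choroid plexus genes (2.66) reach far to the right. The medians of endothelium (1.15) and radial glia (1.06) stay near 1, with an endothelial gene at 2.93.

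Several genes with a large spread at E18.5 also had more counts at that stage. The tables were normalized separately, so levels across them are set side by side with no test. A level is a mean over 10 libraries, so a single library with an extreme count can raise both the level and the SE. The part of such a library in the ratios below was not tested. In the authors' deposited table Col1a1 had a level of 252 at E18.5 and 16.2 at E14.5, a ratio of 15.6. The ratio was 24.5 for Col6a1, 8.09 for Col6a3, 5.25 for Postn, 4.53 for Col3a1 and 4.35 for Dcn. Over the 8 members without a p-value at E18.5 that both tables list, the median ratio was 5.25, against 1.64 for the other 54 members in both tables and 1.11 for all 15415 shared genes.

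A higher level at E18.5 did not always go with a larger relative SE. Lama3 and Col5a3 had ratios of 6.35 and 6.45, with relative SEs of 0.973 and 1.17 at E18.5. In the other direction, Col2a1 had a level of 258 at E18.5 and 1659 at E14.5 (ratio 0.156), Col22a1 had 177 and 441 (0.401) and Col18a1 had 352 and 868 (0.405), in the authors' deposited table. Across the 62 members in both tables Pearson's r between the log ratio and the log relative SE at E18.5 was 0.25, as a description over genes, which all come from the same libraries.

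**Figure D4:**
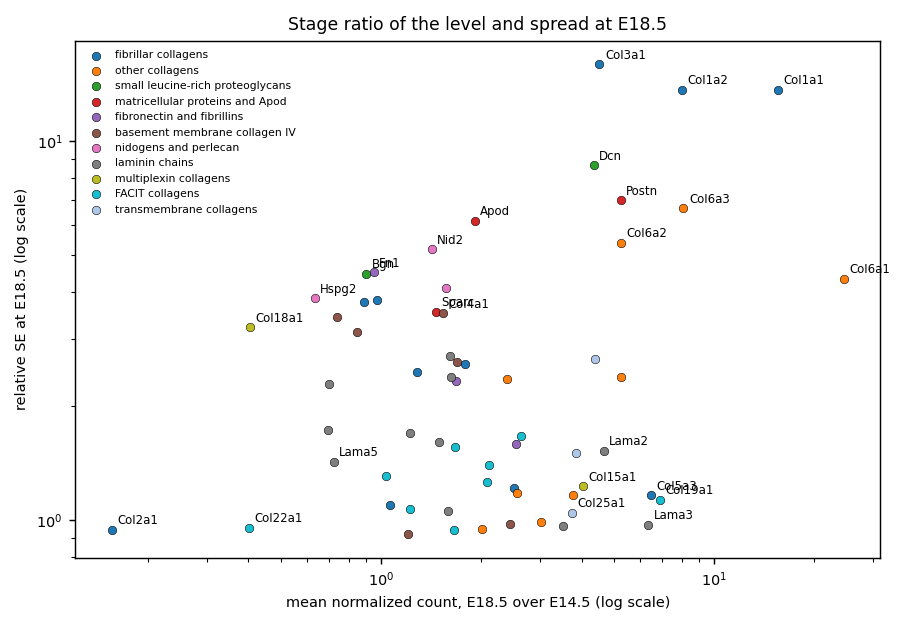
Relative SE at E18.5 against the ratio of mean normalized counts (E18.5 over E14.5) for the 62 genes in both tables, both axes on log scales, coloured by class. Type I and III collagens are high on both axes (Col1a1, ratio 15.6 and relative SE 13.7), whereas Lama3 (6.35 and 0.973) is high on the x axis alone and Hspg2 (0.633 and 3.85) on the y axis alone.

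At E14.5, within the period of cortical neurogenesis, the errors of the matrix genes were close to those of other genes of their level, and 2 members rose in KI. Of 64 members listed, 48 were tested; 2 rose and 0 fell. Of all 13417 genes tested, 0.738% rose, 0.47% fell and 1.21% changed in either direction. Above 0 stood 36 of the 48 tested members (75%), against 49.8% of all genes tested, and their median log2 fold change was 0.11, against −0.00 over all genes tested. At an unadjusted p under 0.05 there were 13 members above 0 and 0 below 0, which is 27.1% of the members tested, against 11.5% of all genes tested. Of these 13, 11 did not pass after adjustment.

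Lama5 encodes the α5 chain of laminins in mature basement membranes of epithelia and vessels. For Lama5 (ID 16776, chromosome 2 at 180176373 to 180225904) the authors' deposited table gives −0.11 (SE 0.141) at E18.5. The authors' value at E14.5 was 0.38 (SE 0.0752, DESeq2 adjusted p = 0.000373), for a level of 389 in the deposited table. The KI level at E14.5 was 29.7% above WT, with a 95% interval from 17.1% to 43.7%. Subtracting the earlier from the later fold change left −0.48 (SE 0.159, with bounds of −0.79 and −0.17 at 95%); among 13106 genes tested at both stages this missed the threshold (adjusted p = 0.892, from the deposited DESeq2 estimates).

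Laminins are trimers of an α, a β and a γ chain, and the chains that pair with α5 did not pass at E14.5. The authors' deposited table gives −0.01 (SE 0.0662) for Lamb1, 0.01 (SE 0.0632) for Lamb2 and 0.05 (SE 0.0447) for Lamc1. Among the other α chains, Lama1, the chain of early basement membranes, was at 0.11 (SE 0.0747), Lama2 at −0.16 (SE 0.219) and Lama4, a vascular chain, at −0.06 (SE 0.0812) in the authors' deposited table. Of 10 laminin chains tested at E18.5, 4 were above 0, with a median of −0.04, and at E14.5 5 of 9, with a median of 0.01.

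Col18a1 encodes collagen XVIII, a basement membrane proteoglycan whose end fragment is endostatin. At E18.5 Col18a1 (ID 12822, chromosome 10 at 77052178 to 77166530) was at 0.00 (SE 0.286) in the authors' deposited table, with an interval from −32.2% to 47.5% relative to WT. At E14.5 the authors' deposited table gives 0.22 (SE 0.0598, DESeq2 adjusted p = 0.0308). That is 16.2% above WT, with a 95% interval from 7.13% to 26.0%. The call ended with the Benjamini-Yekutieli adjustment (adjusted p = 0.310, from the authors' DESeq2 p-values) and with an empirical null (adjusted p = 0.299, from their Wald scores). For its relative Col15a1, a vascular basement membrane collagen, the authors' deposited table gives −0.16 (SE 0.140) at E14.5.

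The other basement membrane genes did not pass at E14.5. The authors' deposited table gives 0.04 (SE 0.0570) for Col4a1 and 0.06 (SE 0.0578) for Col4a2. Col4a6, an X-linked chain of a special type IV network, stood at 0.35 (SE 0.137, DESeq2 adjusted p = 0.221) in the authors' deposited table. Nid2, a linker of the laminin and type IV networks, was at 0.23 (SE 0.0802, DESeq2 adjusted p = 0.140) and its paralog Nid1 at −0.01 (SE 0.0637) in the authors' deposited table. Perlecan (Hspg2) stood at 0.12 (SE 0.0617) and Fn1 at 0.13 (SE 0.0439, DESeq2 adjusted p = 0.130) in the same authors' deposited table.

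Type I collagen had the largest estimates among the fibrillar genes at E14.5, without passing. In the authors' deposited table Col1a2, at a level of 50.9, was at 0.61 (SE 0.207, DESeq2 adjusted p = 0.118), 52.7% above WT with an interval from 15.3% to 102%. Its partner Col1a1 stood at 0.76 (SE 0.387) at a level of 16.2, for which the authors' deposited table has a p-value but no adjusted p. Col3a1 was at 0.28 (SE 0.148), the minor fibrillar Col27a1 at 0.40 (SE 0.146), Col2a1 at 0.12 (SE 0.0569) and Col11a1, a nucleator of fibrils, at 0.15 (SE 0.0686) in the authors' deposited table. Of 8 fibrillar collagens tested at E18.5, where Col1a1, Col1a2 and Col3a1 had no p-value, 4 were above 0 (median −0.04). At E14.5 a different set of 8 was tested, without Col1a1, Col24a1 and Col5a3, and 7 were above 0 (median 0.18).

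The member nearest to the threshold without passing at E14.5 was Col22a1, a FACIT collagen of tissue junctions, at 0.26 (SE 0.0802, DESeq2 adjusted p = 0.0737) in the authors' deposited table. Col7a1, the collagen of anchoring fibrils, had a level of 40.6 and was at 0.65 (SE 0.255, DESeq2 adjusted p = 0.217) in the authors' deposited table. Of 9 FACIT collagens tested, 8 were above 0, with a median of 0.11. Col25a1, the neuronal transmembrane collagen, was at 0.08 (SE 0.0726) at E18.5 and at −0.15 (SE 0.116) at E14.5 in the authors' deposited table. Decorin stood at 0.41 (SE 0.256), biglycan at 0.12 (SE 0.105) and Sparc, a collagen-binding glycoprotein, at 0.03 (SE 0.0597) in the authors' deposited table for E14.5. The fibrillin genes, whose products form elastic microfibrils, stood at 0.04 (SE 0.102) for Fbn1 and −0.07 (SE 0.0873) for Fbn2 there.

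The 16 members with a p-value but no adjusted p at E14.5 had levels of 1.09 to 24.7 and log2 fold changes of −0.41 to 1.42, with SEs of 0.279 to 1.39. They were Col13a1, Col17a1, Col1a1, Col24a1, Col28a1, Col4a3, Col5a3, Col6a1, Col6a3, Col6a4, Col6a5, Col6a6, Col8a1, Lama3, Lamb3 and Postn. The highest value belonged to Col6a6, at 1.42 (SE 1.39) in the authors' deposited table, and the lowest to Col4a3. At E18.5 the members in this state were Col13a1 (0.14, SE 0.9997), Col4a3 (−0.39, SE 0.367) and Lamb3 (0.48, SE 0.343) in the authors' deposited table.

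Between stages, 43 members were tested at both. Of these, 14 were above 0 and 5 below 0 at both stages. A further 18 were below 0 at E18.5 and above 0 at E14.5, and 6 the reverse. Pearson's r between the log2 fold changes of the 43 members at the 2 stages was 0.05, as a description. These counts were not made over all genes, so they do not set the members apart. By the test on the authors' DESeq2 estimates, the members whose change differed between stages numbered 0 (all genes, 0%). At an unadjusted p under 0.05 there were 2, Lama5 and Col27a1, against 4.52% of all genes. Col27a1 had a stage difference of −0.53 (SE 0.219).

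Of the genes that make, bind and cut matrix, 0 passed at E18.5 and 2 at E14.5, with the numbers tested given per list below. Of all genes tested, 0.0662% passed at E18.5 and 1.21% at E14.5. Of 29 collagen synthesis and crosslinking genes, 0 of 23 tested at E18.5 passed the DESeq2 test, and 1 of 25 rose at E14.5. This was Plod3, a lysyl hydroxylase and glycosyltransferase of collagens, at 0.23 (SE 0.0605, DESeq2 adjusted p = 0.0159) in the authors' deposited table. Lox, the crosslinking oxidase, and Pcolce, an enhancer of procollagen cleavage, had no p-value at E18.5 (SE 1.39 and 0.650 in the authors' deposited table). The collagen chaperone gene Serpinh1 had a relative SE of 4.42 at E18.5 and 1.05 at E14.5; these last 3 genes were picked after their values were seen.

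Of 26 matrix receptors, 0 of 25 tested passed the authors' DESeq2 test at E18.5 and 0 of 25 at E14.5. For these and the next lists, the share of all genes tested that passed was 0.0662% at E18.5 and 1.21% at E14.5. Above 0 were 5 receptors at E18.5 and 12 at E14.5, against 48.8% and 49.8% of all genes tested. Of 16 metalloproteinases and inhibitors, 0 of 15 tested passed at E18.5 and 1 of 13 rose at E14.5, the membrane-anchored inhibitor Reck, at 0.45 (SE 0.114, DESeq2 adjusted p = 0.0118) in the authors' deposited table. Of 20 TGF-β pathway genes, 0 of 19 tested passed at either stage. At E18.5 and an unadjusted p under 0.05, the synthesis list held 2 genes above and 1 below 0 of 23 tested. The receptors held 0 and 1 of 25, and the TGF-β genes 1 and 0 of 19. The metalloproteinases and inhibitors held 0 and 1 of 15. Of all genes tested at E18.5, 5.96% were under this p. At E14.5 the synthesis list held 5 above and 0 below 0 of 25 tested, the metalloproteinases and inhibitors 2 and 2 of 13, the receptors 1 and 0 of 25, and the TGF-β genes 1 and 0 of 19, against 11.5% of all genes tested.

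The cell type lists stood beside these values as follows. At E18.5, 9 of the 20 listed meningeal markers were tested, because 10 had no p-value and 1 no adjusted p, so these 9 cover only part of the list. Of the 9, 4 were above 0 (median −0.05) and 0 passed the DESeq2 test. Over all 20 listed markers, which include those with no p-value, 15 were above 0 and the median was 0.19. The direction in the 9 is therefore not that of the whole list. At an unadjusted p under 0.05 there were 0 above and 1 below 0. The latter was Pdgfra, at −0.20 (SE 0.0932) in the authors' deposited table, with a level of 1256 at E18.5 and 200 at E14.5. Pdgfra was not among the 16 of 20 listed markers with a relative SE of at least 2. Whether its value comes from meningeal cells was not tested. Above 0 at that stage were also 9 of 14 endothelial genes, 6 of 11 pericyte and smooth muscle genes, 3 of 4 choroid plexus genes, 6 of 6 microglia and macrophage genes and 2 of 12 radial glia genes. In each of these lists 0 genes passed the DESeq2 test, and at an unadjusted p under 0.05 there was 1 gene in all, a radial glia gene below 0. Of 9 Cajal-Retzius genes tested at E18.5, 4 were above 0 and 0 passed. At an unadjusted p under 0.05 that list held 1 gene above 0, Ebf2 (0.48, SE 0.243), and 1 below 0, Ndnf (−0.15, SE 0.0738), in the authors' deposited table. Of all genes tested at E18.5, 48.8% were above 0, 0.0662% passed and 5.96% had an unadjusted p under 0.05.

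At E14.5, of 11 meningeal fibroblast markers tested, 8 were above 0 (median 0.12) and 0 passed the DESeq2 test. At an unadjusted p under 0.05, 3 of these markers were above and 1 below 0. Of all genes tested at E14.5, 49.8% were above 0, 0.738% rose, 0.47% fell and 11.5% had an unadjusted p under 0.05. All 6 erythroid genes tested were above 0 (median 0.52) and 2 rose, the embryonic globin genes Hbb-y and Hba-x. Of 13 endothelial genes, 5 were above 0 (median −0.01), and of 8 pericyte and smooth muscle genes 2 were (median −0.04). In that list the Notch receptor gene Notch3 rose, at 0.20 (SE 0.0505, DESeq2 adjusted p = 0.0120) in the authors' deposited table. Of 12 radial glia genes, 5 were above 0 (median −0.01), with a rise of Ttyh1, and of 9 Cajal-Retzius genes 4 were, with a fall of Ndnf. The part of these cell types in the E14.5 values of the matrix genes was not tested.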

How the data were processed

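RNA-seq of forebrain was analysed; the ChIP-seq and ATAC-seq samples were not used here. The submitters' processing notes name Trimmomatic 0.39 and HISAT2 2.1.0, featureCounts 2.0.0, the mm10 build and, as the authors' test, DESeq2 1.26.0. Per the file headers, the authors deposited for each stage a mean normalized count (signal, the mean over libraries), a log2 fold change with its SE, a Wald score and p-values before and after adjustment. With 0 columns per library, depth per library is unknown and the SE is the record of precision.

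Symbols came from RefSeq (GRCm38.p6) by gene ID (97.5% of IDs matched at E18.5, 95.8% at E14.5). A gene passed at a deposited adjusted p under 0.05; the lowest level tested was 32.7 at E18.5 and 25.2 at E14.5. Relative SE, 95% intervals (normal) and stage differences (two-sided normal test of the difference over its SE, Benjamini-Hochberg over 13106 genes) were computed in Python 3.11.15 with scipy 1.17.1 and tested on simulated data. The members and lists were chosen with earlier results of these data known. Members were named if they passed, had no p-value or adjusted p, were among the 10 largest Wald scores, the 5 highest or 3 lowest relative SEs at a stage or the 5 largest stage differences, or were on a preset list of well-known matrix genes; other lists gave up to 4 genes that passed and the 3 largest Wald scores per stage. The values of 1 gene are not reported here, though counts and medians include it.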

Additional observations from a re-analysis of the deposited data

How the results depend on the processing

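Of the E14.5 calls among the matrix genes, 2 by the deposited adjusted p, 1 was left with the Benjamini-Yekutieli adjustment and 1 with an empirical null (Wald scores centred and scaled by their own spread); both times it was Lama5. Adjusting over every gene with a p-value, or over genes at a level of at least 100, kept Lama5 and Col18a1. The median relative SE at E18.5 was 1.61 over members with an adjusted p, against 2.31 over all listed; with 50 or 200 genes on either side it was 2.29 or 2.31. These 3 settings were chosen after seeing the data. The counts of 0 at E18.5 and between stages stayed 0 under each adjustment run. At E18.5 the median log2 fold change of the members was −0.03 at a level of at least 100, where 19 of 40 were above 0. No paired analysis was possible because the tables hold no value per library; for the same reason leaving out a replicate was not run. Wide SEs limit what can be seen at E18.5 in the members with a high relative SE.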
